A study of Mus musculus with 4 samples.

Results

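The 32 genes described here make cholesterol and fatty acids or control that synthesis. They were taken by gene symbol from a given list of sterol and fatty acid synthesis genes and regulators of the sterol regulatory element binding proteins (SREBPs). The rule uses no measured value, although the list was drawn up with earlier results of these data known. All 32 were found among the 55141 genes of the deposited expression table. Of these members, 7 act from acetyl-CoA to farnesyl diphosphate (the mevalonate pathway), 11 from squalene to sterol, 5 are SREBP regulators or move cholesterol, and 9 make, elongate or desaturate fatty acids.

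RNA from cultured articular chondrocytes, the cells of joint cartilage, was sequenced from the 3′ ends of mRNAs (QuantSeq) in 4 libraries, 1 per condition. The mice were 3 weeks old, and cells were released from femoral head cartilage with collagenase and grown in medium with fetal bovine serum. The WT library is labelled wild type, strain C57BL/6, and the study names the cells compared with the cluster knockout both wild type and Control where it describes the sequencing. Its methods give the Control mice as carriers of floxed alleles of both clusters, and whether the WT mice carried them was not settled from the sources used here. The Cart-miR-23clus KO library is from mice of strain C57BL/6 with Col2a1-cre and flox/flox alleles of the miR-23a/b clusters, in which a Cre driven by a collagen II promoter removes both clusters in cells that use that promoter. The miR-26a KO library is from miR-26a -/- mice of strain C57BL/6, a deletion not limited to chondrocytes. The fourth library is from miR-26a -/- chondrocytes of strain C57BL6/J transfected with a miR-26a mimic, and is called the mimic library here. All 4 cultures thus share the age, the tissue and the serum. Whether the miR-26a KO cells without the mimic were given a control oligonucleotide is not stated in the sources used here.

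Cells make cholesterol from acetyl-CoA through mevalonate and squalene, and make fatty acids from the same precursor through malonyl-CoA. When membrane cholesterol is low, the escort protein Scap carries SREBPs from the endoplasmic reticulum to the Golgi, where they are cut and released to activate these genes, and Insig proteins hold Scap back when sterol is plentiful. Srebf2 encodes the form best known for sterol genes and Srebf1 the forms best known for fatty acid genes. Chondrocytes live in a tissue without blood vessels, and both cholesterol synthesis and removal have been studied in growth plate and joint cartilage.

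The deleted and added miRNAs are shown because their seed (bases 2 to 8, in capitals) sets which 3′ untranslated regions (3′ UTRs) they can pair with. The mature sequences are from RefSeq on GRCm38.p6, and the miR-26a sequence equals the sense strand of the mimic. miR-26b is not named among the deleted miRNAs, and has the same seed as miR-26a. miR-27a and miR-27b also share a seed. miR-23b-3p belongs to the deleted clusters.
miR-26a-5p: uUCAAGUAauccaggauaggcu
miR-26b-5p: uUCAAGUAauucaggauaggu
miR-23a-3p: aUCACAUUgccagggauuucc
miR-27a-3p: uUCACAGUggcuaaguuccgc
miR-27b-3p: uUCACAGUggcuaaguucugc
miR-24-3p: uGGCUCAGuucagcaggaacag

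Matches of 7 bases to these seeds were looked for in the annotated 3′ UTRs (GENCODE, GRCm38) of all 32 members. TACTTGA, the match to the miR-26a seed, was in 4 members (Acat2, Stard4, Elovl6 and Fads2), against 13.1% of 10352 genes with reads and a 3′ UTR of at least 50 bases. AATGTGA, the miR-23 match, was in 7 members against 18.6% of genes. ACTGTGA, the miR-27 match, was in 6 members against 19.3%, and CTGAGCC, the miR-24 match, was in 4 members against 21.1%. Windows are shown for 4 of the members with a match, Acat2, Mvk, Scd2 and Fads2, whose ratios are described further on, with the match in capitals. The 3′ UTRs of all annotated coding transcripts were searched. The Mvk match lies in one of 221 bases, while the gene runs on to chr5:114460591. The miR-23 match of Acly lies in one of 167 bases at chr11:100500585, while that gene runs on to chr11:100476353. A match is a description of the sequence and was not tested as a working site.
Acat2, miR-26a match, chr17:12943459-12943465, minus strand: gtgcctcctgaaTACTTGAattaaaggcat
Acat2, miR-23 match, chr17:12943736-12943742, minus strand: ttgctgtactttAATGTGAgacacccaagg
Mvk, miR-27 match, chr5:114453051-114453057, plus strand: gaggcctggggcACTGTGAggctaccttgt
Scd2, miR-23 match, chr19:44305559-44305565, plus strand: cccacttaaacaAATGTGAaaaataaaagc
Scd2, miR-27 match, chr19:44306445-44306451, plus strand: tcgcctaacaatACTGTGActcagtattct
Fads2, miR-26a match, chr19:10063770-10063776, minus strand: ggctgggattggTACTTGAggcttctttcc
Fads2, miR-23 match, chr19:10063039-10063045, minus strand: gggcatgagggaAATGTGAgggcaggtggg

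The libraries held from 1336496 to 1505805 reads on genes, of which the members took 2506 reads in WT, 1853 in the Cart-miR-23clus KO library, 2143 in miR-26a KO and 2479 with the mimic. As a share of reads on genes this was 0.166% (exact 95% binomial interval 0.16% to 0.173%) in WT, 0.139% (0.132% to 0.145%) in the Cart-miR-23clus KO library, 0.156% (0.150% to 0.163%) in miR-26a KO and 0.171% (0.164% to 0.178%) with the mimic. The Cart-miR-23clus KO interval did not overlap those of the other 3 libraries. The cells had the 12 chondrocyte markers, none at 0 reads in any library, with a summed level from 29193 to 38997 counts per 1000000 reads on genes (CPM). Osteoblast markers were also abundant, from 8549 to 34837 CPM, and endothelial markers were near 0, from 3.98 to 8.98 CPM. Of the deleted miRNA loci, those found by name in the files (Mir23a, Mir27a, Mir23b, Mir26a-1 and Mir26a-2) had 0 reads in all 4 libraries, so they gave no check of the genotypes.

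With 1 library per condition, no difference could be checked against replicates, and p-values are not given. A difference is given as the ratio of the deposited TPM values (transcripts by length, scaled to a fixed sum per library) with an exact Clopper-Pearson 95% interval on the reads, which covers counting error only. A ratio of at least 1.5, or at most 1/1.5, is called past the fold, over genes with at least 20 reads in the 2 libraries together. Of the 32 members 29 met that minimum in each comparison, while Idi1, Fdps and Tm7sf2 did not. TPM levels are not compared between genes, because the authors divided the reads by 1 length per gene. The length implied by reads and TPM equals that of an annotated transcript for 31 of the 32 members. For 6 members this length was less than that of the longest coding transcript by more than 2 times (356 against 3464 bases for Hmgcs1). This length cancels in a ratio of 1 gene between libraries.

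In Cart-miR-23clus KO against WT, a comparison that addresses what loss of the miR-23a/b clusters does to chondrocyte transcripts, 6 members were lower past the fold and 0 were higher. The 6 were the desaturase genes Fads2, Scd2 and Scd1, the sterol isomerase gene Ebp, the mevalonate kinase gene Mvk and the regulator Srebf1. They make 20.7% of the 29 members compared, beside 12.8% of 9573 genes lower past the fold and 12.5% higher. For all 6 the interval also excluded 1, a criterion that 15.2% of all genes met in either direction. The median log2 ratio of the members, with 0.5 TPM added, was -0.08, beside -0.02 for all genes. Of the 29 ratios 21 were below 1, beside 4928 of 9573 genes.

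**Figure D1:**
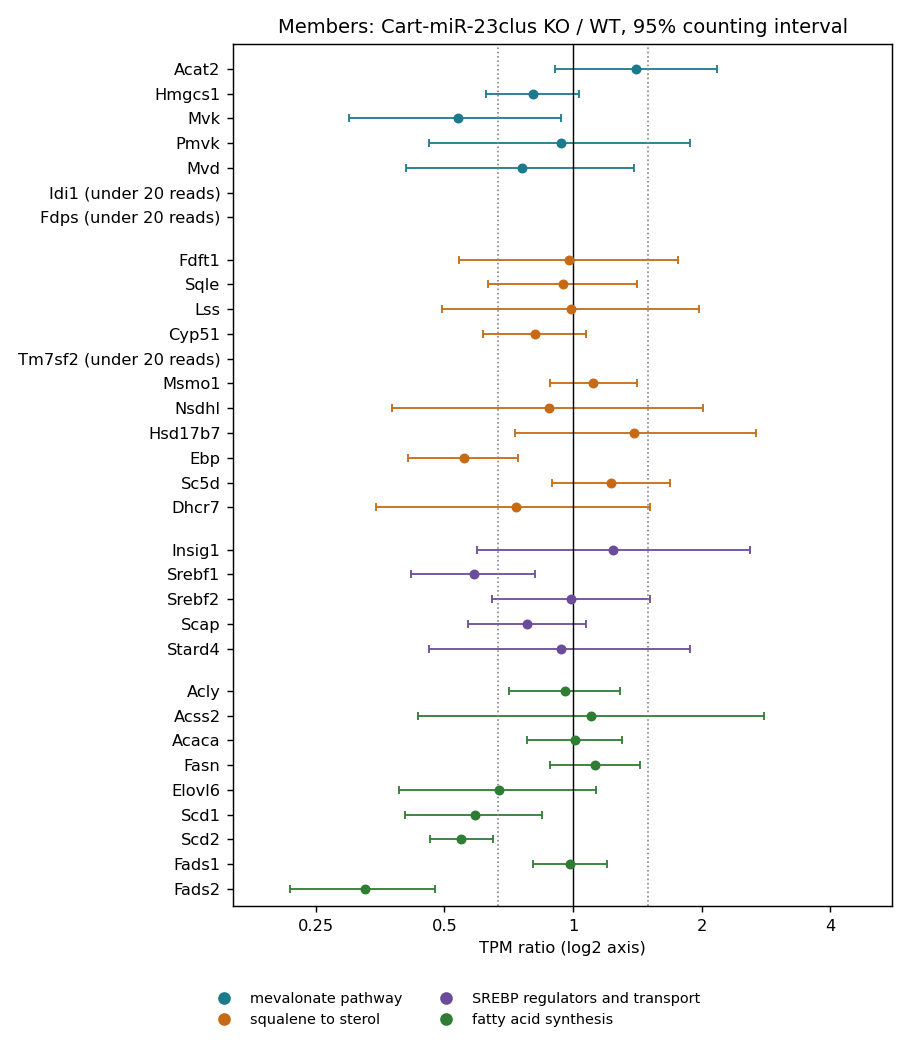
Ratio of TPM in Cart-miR-23clus KO to that in WT for the 29 members with at least 20 reads in the 2 libraries together, on a log2 axis, in 4 groups by role, with bars for the exact 95% counting interval and dotted lines at 1.5 and 1/1.5. Fads2 lies farthest to the left at 0.325, and Scd1, Scd2, Srebf1, Ebp and Mvk lie left of the lower dotted line with intervals that stop short of 1; none of the 29 lies right of the upper line.

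Of the fatty acid genes, Fads2, which encodes the Δ6 desaturase that starts the synthesis of long polyunsaturated fatty acids, differed most. It had 122 reads in WT, 36 in the Cart-miR-23clus KO library, 63 in miR-26a KO and 89 with the mimic. The corresponding levels were 37.1, 12.0, 21.0 and 27.8 TPM. The ratio of Cart-miR-23clus KO to WT was 0.325 (95% interval 0.217 to 0.475), and that to the mimic library was 0.434 (0.286 to 0.646). WT was the highest and Cart-miR-23clus KO the lowest of the 4 libraries, with the miR-26a KO and mimic libraries between them. The ratio of the mimic library to miR-26a KO, neighbours in that order, had an interval that included 1 (1.32, 0.945 to 1.85).

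Scd2, a Δ9 desaturase that makes monounsaturated fatty acids, had 422 reads in WT, 210 in the Cart-miR-23clus KO library, 261 in miR-26a KO and 327 with the mimic. Its levels were 74.0, 40.6, 50.3 and 58.9 TPM, the same order of libraries as for Fads2. The ratio of Cart-miR-23clus KO to WT was 0.548 (0.462 to 0.648). Scd1, another Δ9 desaturase, had 88 reads in WT, 47 in the Cart-miR-23clus KO library, 74 in miR-26a KO and 58 with the mimic, or 17.4, 10.3, 16.1 and 11.8 TPM. Its ratio to WT was 0.588 (0.404 to 0.847), while against the mimic library it was 0.869 (0.579 to 1.3). Thus Scd1 was lower in Cart-miR-23clus KO than in WT by more than counting error, and no such difference was detectable against the mimic library. In the last 500 bases of their transcripts, Scd1 and Scd2 share no window of 75 bases, the read length.

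The other fatty acid members stood closer to WT. Fads1, the Δ5 desaturase gene whose start on the plus strand of chromosome 19 lies 81142 bases from that of Fads2 on the minus strand, had 218 reads in WT and 195 in Cart-miR-23clus KO, a ratio of 0.985 (0.808 to 1.20). Fasn, which encodes fatty acid synthase, had 138 and 141 reads (ratio 1.12, 0.883 to 1.43), and Acaca, the acetyl-CoA carboxylase that makes malonyl-CoA, had 131 and 120 reads (1.01, 0.781 to 1.3). Acly and Acss2, which supply acetyl-CoA from citrate and from acetate, had ratios of 0.956 (0.708 to 1.29) and 1.10 (0.433 to 2.80). Elovl6, an elongase, lay just short of the fold at 0.671 (0.391 to 1.13). Summed, Scd1, Scd2 and Fads2 took 420 CPM in WT and 219 CPM in Cart-miR-23clus KO, whereas the other 6 fatty acid members took 424 and 432 CPM. The 29 members without these 3 took 1245 CPM in WT, 1167 in the Cart-miR-23clus KO library, 1274 in miR-26a KO and 1383 with the mimic. These sums were split after the values had been seen.

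Among the regulators, Srebf1 had 107 reads in WT, 57 in the Cart-miR-23clus KO library, 66 in miR-26a KO and 86 with the mimic. The levels were 25.2, 14.8, 17.1 and 20.8 TPM, the order of libraries also found for Fads2 and Scd2. The ratio of Cart-miR-23clus KO to WT was 0.587 (0.418 to 0.816). Against the mimic library it was 0.711, and the interval from 0.5 to 1.01 included 1. Reads from the 3′ end do not tell apart the Srebf1 transcripts that start at different promoters. Srebf2 had 50 reads in WT, 45 in the Cart-miR-23clus KO library, 59 in miR-26a KO and 63 with the mimic, or 9.43, 9.34, 12.2 and 12.2 TPM. Its ratio to WT was 0.991 with an interval from 0.647 to 1.51, so a difference of that width in either direction was not detectable. Scap had 100, 71, 99 and 109 reads in the same order of libraries, or 155, 121, 168 and 173 TPM, a ratio of 0.782 (0.568 to 1.07). Insig1 had 16, 18, 13 and 12 reads, or 5.68, 7.03, 5.07 and 4.37 TPM, a ratio of 1.24 (0.596 to 2.60). Stard4, which carries cholesterol between membranes, had a ratio of 0.936 (0.460 to 1.88) on 20 and 17 reads.

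Promoter letters are shown for Hmgcs1, the member found with a copy of the sterol regulatory element core TCACNCCAC, and for Srebf1, the regulator past the fold. The windows run from 250 bases before to 50 bases after a RefSeq start site (GRCm38.p6), and 25 of the 32 members had one or more. On either strand TCACNCCAC was in the windows of 1 of 25 members and of 1.44% of 27025 genes. Only exact matches to these letters were counted, so variant elements, or elements outside the windows, would not be found. CCAAT, the letters bound by the factor NF-Y, was in 20 of 25 members (80.0%) and in 41.1% of genes. CACGTG, an E-box, was in 5 of 25 members (Dhcr7, Hsd17b7, Insig1, Sc5d and Scap) and in 8.09% of genes. Of the members past the fold in Cart-miR-23clus KO, Mvk, Ebp and Srebf1 had CCAAT, while in the Fads2 window none of the 3 motifs was found. Scd1 and Scd2 were not among the 25 members with a window. Srebf1 has 3 windows, of which the outermost and the innermost, both with CCAAT, are shown. In the lines below TCACNCCAC and CCAAT, or its opposite strand ATTGG, are in capitals, and the 2 motifs do not overlap there.
Hmgcs1, chr13:119690101-119690400, plus strand: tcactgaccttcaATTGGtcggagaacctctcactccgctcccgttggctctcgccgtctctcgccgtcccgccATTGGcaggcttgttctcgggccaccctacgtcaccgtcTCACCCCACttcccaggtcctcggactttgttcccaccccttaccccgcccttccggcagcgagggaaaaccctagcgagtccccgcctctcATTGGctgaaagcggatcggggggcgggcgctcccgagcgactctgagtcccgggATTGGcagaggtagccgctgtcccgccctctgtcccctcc
Srebf1, outermost start, chr11:60222532-60222831, minus strand: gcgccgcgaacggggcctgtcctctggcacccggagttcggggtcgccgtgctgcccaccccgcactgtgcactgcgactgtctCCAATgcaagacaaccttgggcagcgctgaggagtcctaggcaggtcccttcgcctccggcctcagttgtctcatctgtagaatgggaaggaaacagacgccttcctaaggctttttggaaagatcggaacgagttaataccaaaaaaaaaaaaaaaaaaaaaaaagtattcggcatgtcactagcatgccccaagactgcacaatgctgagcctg
Srebf1, innermost start, chr11:60210422-60210721, minus strand: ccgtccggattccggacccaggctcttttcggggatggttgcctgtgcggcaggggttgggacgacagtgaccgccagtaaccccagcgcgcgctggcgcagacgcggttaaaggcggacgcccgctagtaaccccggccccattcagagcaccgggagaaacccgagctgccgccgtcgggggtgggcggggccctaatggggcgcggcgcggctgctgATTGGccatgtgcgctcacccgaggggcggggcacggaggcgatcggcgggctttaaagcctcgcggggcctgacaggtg

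In the mevalonate pathway, Mvk had 41 reads in WT, 20 in the Cart-miR-23clus KO library, 28 in miR-26a KO and 32 with the mimic, or 37.4, 20.1, 28.1 and 30.0 TPM. The ratio of Cart-miR-23clus KO to WT was 0.537 (0.298 to 0.938), and with a 99% interval, from 0.248 to 1.10, 1 was included. Hmgcs1, the synthase that makes HMG-CoA, had 156, 114, 131 and 166 reads in the same order of libraries. Its ratio of Cart-miR-23clus KO to WT was 0.805 (0.626 to 1.03), and those of Pmvk and Mvd, the next enzymes after Mvk, were 0.936 (0.460 to 1.88) and 0.759 (0.407 to 1.39). Acat2, the thiolase that opens the pathway, was on the other side of 1 at 1.40 (0.910 to 2.18). Idi1 and Fdps, which make and join the isoprene units, had at most 1 and 8 reads in any library. A difference in them was not detectable at this depth, and 64.0% of the 75-base windows at the 3′ end of Fdps are shared with other genes, pseudogenes among them.

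From squalene to sterol, Ebp, the isomerase that shifts the double bond of the sterol B ring, was the member past the fold. It had 141 reads in WT, 71 in the Cart-miR-23clus KO library, 110 in miR-26a KO and 111 with the mimic, or 77.4, 42.9, 66.3 and 62.5 TPM. The ratio of Cart-miR-23clus KO was 0.554 (0.411 to 0.743) to WT, 0.647 (0.473 to 0.880) to miR-26a KO and 0.686 (0.502 to 0.933) to the mimic library, so Ebp was the lowest in Cart-miR-23clus KO by more than counting error. The enzymes before it in the pathway were closer to WT. The ratio was 0.979 (0.541 to 1.76) for the squalene synthase gene Fdft1, 0.947 (0.633 to 1.41) for the squalene epoxidase gene Sqle, 0.991 (0.494 to 1.97) for the lanosterol synthase gene Lss and 0.813 (0.615 to 1.07) for the demethylase gene Cyp51. Msmo1, a methylsterol oxidase, had 146 and 148 reads (1.12, 0.882 to 1.41), and Sc5d, a desaturase that acts after Ebp, had 78 and 87 reads (1.23, 0.894 to 1.69). Nsdhl, Hsd17b7 and Dhcr7 had 24 reads or fewer in each of the 2 libraries and ratios of 0.881, 1.39 and 0.734, with intervals that included 1. Tm7sf2, a sterol reductase, had 1, 3, 5 and 8 reads in the 4 libraries, too few to show a difference. The sources used here do not say whether strand was counted, so reads of members may include those of genes whose exons overlap them on the opposite strand. Named overlaps of this kind were Ctsb for Fdft1, Akap9 for Cyp51, Rai1 for Srebf1 and Ggt7 and Gss for Acss2. Ctsb had 843, 937, 820 and 880 reads in the order of libraries above, beside 27, 24, 21 and 28 of Fdft1. Akap9 had 142, 108, 161 and 134 reads, beside 126, 93, 118 and 136 of Cyp51. Rai1 had 17, 27, 17 and 9 reads, beside 107, 57, 66 and 86 of Srebf1, and the genes that overlap Acss2 had from 33 to 47 reads together.

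Over the 4 libraries, Cart-miR-23clus KO had the lowest TPM for 14 of 29 members, or 48.3%, beside 31.2% of 9540 genes with at least 40 reads in all 4 together. The mimic library had the highest TPM for 12 of the 29, or 41.4%, beside 23.3% of genes.

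**Figure D2:**
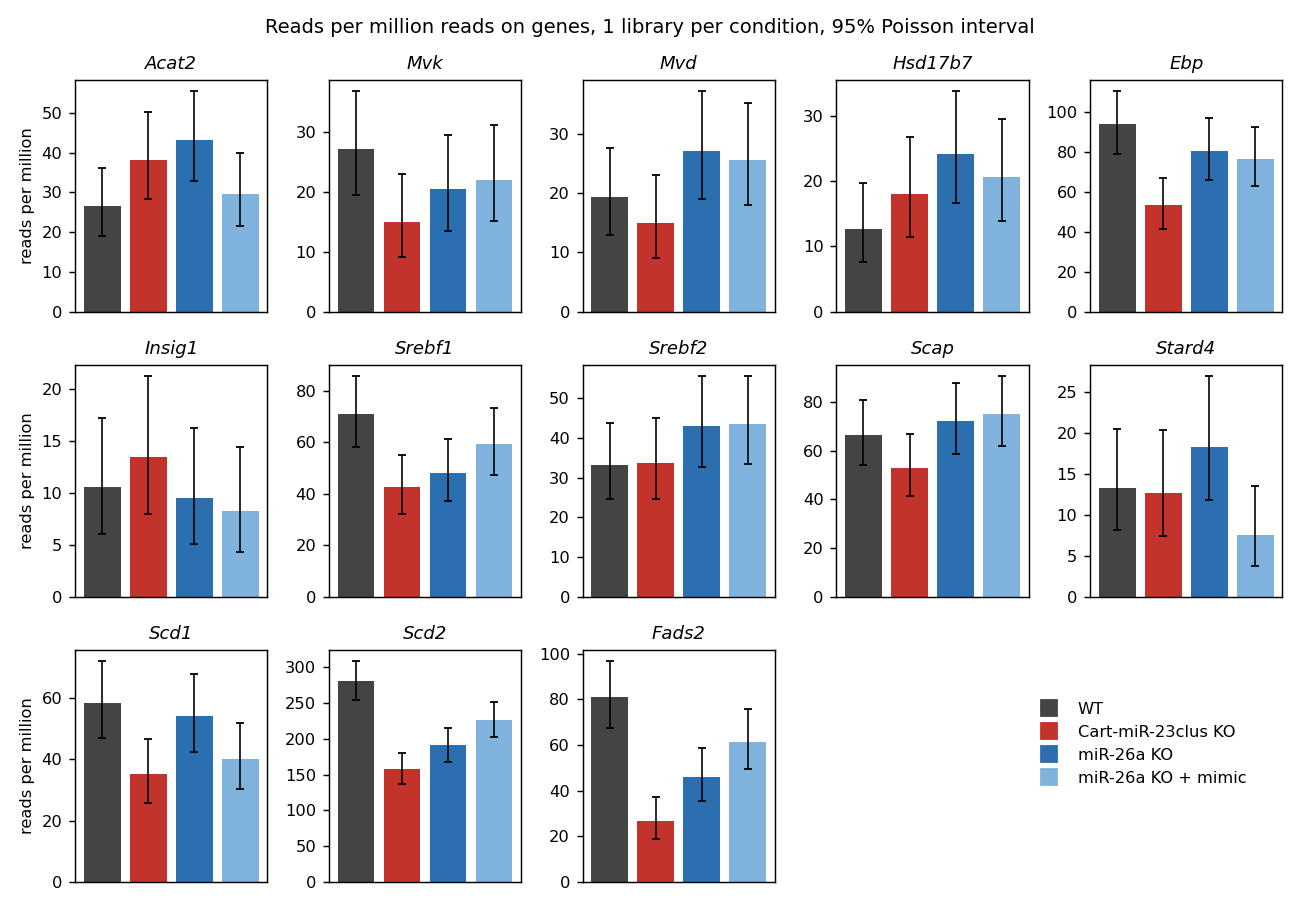
CPM (reads scaled to the library total on genes) of 13 members in the 4 libraries, 1 bar per library, with exact 95% Poisson intervals on the reads. For Fads2, Scd2 and Srebf1 the WT bar is the highest and the Cart-miR-23clus KO bar the lowest; for Acat2 and Stard4 the miR-26a KO bar is the highest.

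The comparison library matters for this result. With the mimic library in place of WT, chosen after seeing the data, the members lower past the fold were 3 (Fads2, Mvd and Nsdhl), 2 were higher (Insig1 and Stard4), beside 11.9% of 9534 genes lower and 10.0% higher, and the median log2 ratio was -0.35, beside -0.03 for all genes. Of these 5 members the interval excluded 1 for Fads2 alone. Scd2 was at 0.689 (0.577 to 0.822), short of the fold with an interval that excluded 1. The same held for Ebp (0.686), Scap (0.699), Cyp51 (0.734), Hmgcs1 (0.737), Acaca (0.785) and Msmo1 (0.786). No member above 1 had an interval that excluded it. Against miR-26a KO, 5 members were lower past the fold (Fads2, Scd1, Ebp, Mvd and Nsdhl) and Pmvk was higher, beside 11.4% of 9453 genes lower and 10.2% higher. With TMM scaling Ebp, at 0.667, fell just short of the fold, which left 4. In 4 of the 5 (all but Nsdhl) the interval excluded 1, as it did past the fold in either direction for 11.4% of all genes. The median of the members was -0.20, beside -0.05 for all genes. The Fads2 ratio of Cart-miR-23clus KO to miR-26a KO was 0.573 (0.369 to 0.876) and that of Scd1 was 0.637 (0.432 to 0.930). Mvd, the decarboxylase at the end of the mevalonate steps, had 29 reads in WT, 20 in the Cart-miR-23clus KO library, 37 in miR-26a KO and 37 with the mimic, or 15.1, 11.5, 21.2 and 19.8 TPM. Its ratio of Cart-miR-23clus KO to miR-26a KO was 0.542 (0.298 to 0.958), so it was lower against miR-26a KO and not detectably so against WT. The 99% intervals of Mvd (0.247 to 1.13) and Scd1 (0.383 to 1.04) against miR-26a KO included 1. Markers moved here too: all 11 macrophage and all 7 adipocyte markers that met the minimum were higher past the fold in Cart-miR-23clus KO than in miR-26a KO, while 6 of 8 osteoblast and 6 of 7 fibroblast markers were lower. In each of the last 2 lists 1 marker was higher past the fold, Spp1 at 2.39 (2.21 to 2.59) and Pdgfra at 1.57 (0.804 to 3.14). The part of all these markers in the members' levels was not tested.

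Other genes of the pathway lay near the shares of all genes. Of 22 further synthesis and uptake genes 19 met the read minimum, of which 3 were higher past the fold (Lpin1 and Acsl4 among them) and 2 lower (Mid1ip1 among them) in Cart-miR-23clus KO against WT, with a median log2 ratio of 0.04. These are 15.8% and 10.5% of the 19, beside 12.5% of all genes higher and 12.8% lower. Lpin1, a phosphatase that makes diacylglycerol, was at 2.37 (1.70 to 3.33), and Acsl4, which activates long fatty acids with coenzyme A, at 1.58 (1.10 to 2.29). Mid1ip1, which activates acetyl-CoA carboxylase, was at 0.635 with an interval from 0.391 to 1.01 that included 1. The ratios of these 3 genes lay on both sides of 1.

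Markers of other cell types moved with the same comparison. All 7 adipocyte markers that met the read minimum were higher past the fold in Cart-miR-23clus KO, and the list summed to 460 CPM in WT, 1431 in the Cart-miR-23clus KO library, 332 in miR-26a KO and 364 with the mimic. The 7 were Car3, Lpl, Fabp4, Adig, Pparg, Plin4 and Cebpa, with ratios from 1.57 for Cebpa to 4.96 for Car3. Pparg, the nuclear receptor that drives fat cell formation, had 38 reads in WT and 115 in Cart-miR-23clus KO, and Fabp4, a fatty acid carrier, had 57 and 223. The other 6 genes of the list of 13 had few reads: Lep and Cidec had 0 in all 4 libraries, Plin1 and Retn at most 1, Cfd at most 5 and Adipoq at most 9. Of 9 osteoblast markers 7 were lower past the fold and 1, Spp1, was higher at 2.09 (1.94 to 2.24). The list summed to 34837, 8549, 16500 and 19188 CPM in that order of libraries. Chondrocyte markers were lower past the fold in 6 of 12 and higher in 2, and 9 of 13 cell cycle genes were higher. Fibroblast markers were lower past the fold in 3 of 6 (Col3a1, Lum and Dpt) and higher in 1 (Ly6a), with a median log2 ratio of -0.58. Macrophage markers were higher in 3 of 13 and lower in 0, with a median of 0.32. The part of these markers in the levels of the members was not tested. In RNA of a whole culture, fewer cells of a type and less RNA per cell cannot be told apart.

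**Figure D3:**
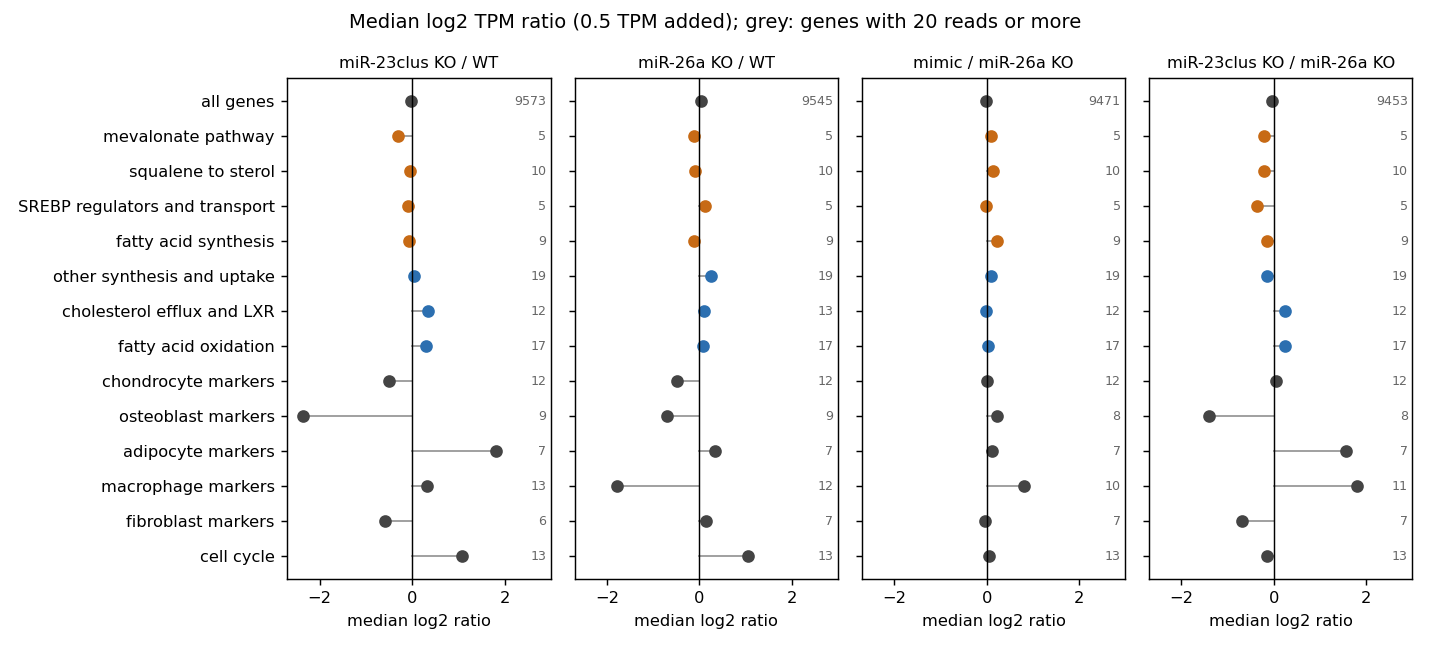
Median log2 TPM ratio, with 0.5 TPM added, of the members by role (orange), of 3 further lipid lists (blue) and of all genes and markers of cell types and the cell cycle (dark grey) in the 4 comparisons; the light grey numbers are the genes with at least 20 reads. The medians of the members stay between -0.37 and 0.23, while the osteoblast list reaches -2.37 and the adipocyte list 1.80 in Cart-miR-23clus KO against WT.

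The comparison of miR-26a KO with WT shares the WT library with the one above. In it 3 members were higher past the fold (Acat2, Hsd17b7 and Nsdhl) and 2 lower (Fads2 and Pmvk) of 29, beside 11.2% of 9545 genes higher and 10.1% lower, so the members' counts lay near the shares of all genes. The interval excluded 1 for Acat2, Hsd17b7 and Fads2, as it did past the fold for 11.5% of genes. The median log2 ratio was -0.12, beside 0.02 for all genes. With the mimic library in place of miR-26a KO, chosen after seeing the data, 1 member was higher (Hsd17b7) and 1 lower (Stard4), beside 10.7% of 9638 genes higher and 9.16% lower, and the median was 0.13, beside 0.03 for all genes. The intervals of Hsd17b7 (0.8825 to 3.05) and Stard4 (0.244 to 1.24) in this comparison included 1. Short of the fold, intervals excluded 1 for Scd1 at 0.676 (0.477 to 0.953), Scd2 at 0.795 (0.686 to 0.921) and Fads2 at 0.749 (0.563 to 0.992). On the other side of 1 they did so for Msmo1 at 1.42 (1.14 to 1.77) and Acaca at 1.28 (1.01 to 1.63). Acat2 had 40 reads in WT, 51 in the Cart-miR-23clus KO library, 59 in miR-26a KO and 43 with the mimic, or 17.0, 23.9, 27.6 and 18.8 TPM. Its ratio of miR-26a KO to WT was 1.62 (1.07 to 2.48). Acat2 was the highest in miR-26a KO. Against that library the intervals of Cart-miR-23clus KO (0.584 to 1.28) and of the mimic library (0.449 to 1.03) included 1. In Acat2, 16.3% of the 75-base windows at the 3′ end are shared with Acat3, which had 0 reads in all 4 libraries.

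Hsd17b7, a ketoreductase of the sterol demethylation steps, had 19 reads in WT, 24 in the Cart-miR-23clus KO library, 33 in miR-26a KO and 30 with the mimic, or 3.94, 5.48, 7.52 and 6.39 TPM. Its ratio of miR-26a KO to WT was 1.91 (1.05 to 3.55), and the WT library was the lowest of the 4. The 99% intervals of this ratio (0.888 to 4.31) and of that of Acat2 (0.942 to 2.83) included 1. Fads2 had a ratio of 0.567 (0.412 to 0.775). Scd2 and Srebf1 lay just short of the fold at 0.679 (0.580 to 0.794) and 0.677 (0.491 to 0.929), with intervals that excluded 1, and when the reads were scaled by edgeR's TMM factors they passed it, which made 4 members lower. For Srebf1 the 99% interval, from 0.444 to 1.02, included 1. Msmo1 was at 1.31 (1.04 to 1.64). Macrophage markers moved in the same comparison: all 12 that met the minimum were lower past the fold in miR-26a KO, and the list of 14 summed to 892 CPM in WT and 307 in miR-26a KO. Of the osteoblast markers 6 of 9 were lower past the fold, of the chondrocyte markers 4 of 12 were lower and 1 higher, and of the cell cycle genes 10 of 13 were higher. The summed osteoblast level followed the same order of libraries as Fads2, Scd2 and Srebf1, highest in WT and lowest in Cart-miR-23clus KO. Mvk and Elovl6 followed it too. Ebp and Scd1, also past the fold in Cart-miR-23clus KO against WT, did not. For Srebf1 the intervals between neighbours in that order included 1. The share of all genes with this order was not counted. The part of these markers in the members' levels was not tested.

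**Figure D4:**
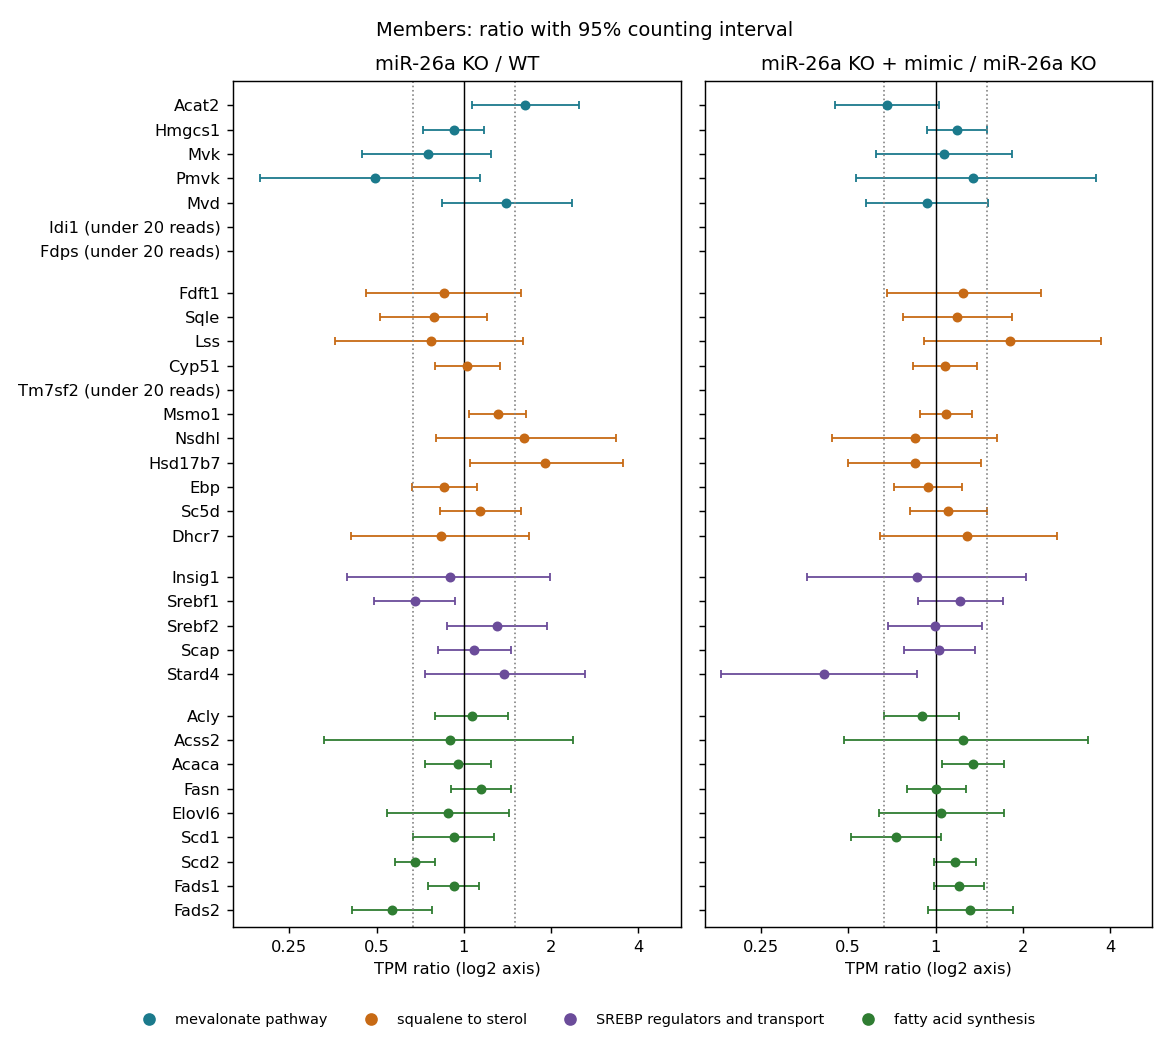
TPM ratios of the members on log2 axes with exact 95% counting intervals, for miR-26a KO to WT (left) and for the mimic library to miR-26a KO (right), with dotted lines at 1.5 and 1/1.5. On the left Acat2 and Hsd17b7 lie right of the upper line and Fads2 left of the lower one with intervals that exclude 1; on the right Stard4 lies left at 0.411 and most other members lie within the lines.

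The mimic library against miR-26a KO, which addresses what adding miR-26a back does, had 2 members past the fold, the fewest of the 4 comparisons. Lss was higher past the fold at 1.80 (0.912 to 3.72) on 27 reads against 14 in miR-26a KO, and Stard4 was lower. This was 1 member of 29 in each direction, beside 6.88% of 9471 genes higher and 6.92% lower. Stard4 had 20 reads in WT, 17 in the Cart-miR-23clus KO library, 25 in miR-26a KO and 11 with the mimic, or 3.76, 3.51, 5.16 and 2.12 TPM. The ratio of the mimic library to miR-26a KO was 0.411 (0.183 to 0.866), so the interval excluded 1, as it did past the fold for 4.88% of genes, while the 99% interval, from 0.141 to 1.06, included it. The median log2 ratio of the members was 0.11, beside -0.00 for all genes, and 19 of the 29 ratios were above 1, beside 4689 of 9471 genes. Acaca was at 1.34 (1.05 to 1.72). Macrophage markers were also higher with the mimic, 8 of 10 past the fold, and their part was not tested; an effect of the transfection itself cannot be told apart from one of miR-26a.

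The 4 members with a miR-26a seed match in the 3′ UTR had these ratios side by side, from comparisons that share the miR-26a KO library. For Acat2 the ratio was 1.62 in miR-26a KO against WT and 0.681 (0.449 to 1.03) with the mimic against without it. For Stard4 the ratios were 1.37 (0.732 to 2.61) and 0.411. For Elovl6 they were 0.884 (0.541 to 1.43) and 1.05 (0.637 to 1.73), and for Fads2 they were 0.567 and 1.32. Acat2 and Stard4 were above 1 without miR-26a and below 1 with the mimic, and Elovl6 and Fads2 the other way round, with the interval excluding 1 for Acat2 and Fads2 in the first comparison and for Stard4 in the second. Counting error in the shared library moves both ratios in opposite directions. The share of all genes on opposite sides of 1 was not counted, so these directions decide nothing. Of the members past the fold in Cart-miR-23clus KO, Fads2 (miR-23), Scd2 (miR-23 and miR-27) and Mvk (miR-27) had matches to seeds of the deleted clusters. The Mvk match is the one in a 3′ UTR of 221 bases far from the end of the gene. Of the 13 members with such a match and enough reads, the ratio to WT was above 1 for 6 (Acaca, Acat2, Fasn, Insig1, Msmo1 and Sc5d) and below 1 for 7, beside 2 above and 14 below among the 16 members without one. All 8 ratios above 1 had intervals that included 1. Of all genes 4645 of 9573 were above 1, and their share with and without a match was not counted. The split by match was not tested. Ebp, Srebf1 and Scd1 had no match of 7 bases to the 4 seeds.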

How the data were processed

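Articular chondrocytes were sequenced in 4 libraries, 1 per condition, grouped by the sample labels. The authors sequenced QuantSeq 3′ libraries from one end over 75 bases and mapped the reads to mm10 (GRCm38.p6 is also named in the submitters' processing notes). The aligner, the counter and the annotation are not given in the sources used here. Deposited estimated counts, whole and not normalized, cover 55450 genes in 3 libraries. The deposited TPM values were made by the authors from reads, 1 length per gene and library scaling. The mimic library has TPM alone. Reads were recovered for it from the spacing of low TPM values: all 14429 values tested were whole within 0.05 reads, 588 genes were not recovered, and the sum was 1449246 reads. This gives from 1336496 to 1505805 reads per library, and 0 reads allow up to 0.000224% of the shallowest library.

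Ratios are of deposited TPM, with exact Clopper-Pearson intervals on reads offset by the TPM per read, and no test between conditions was made. Full values are given for the members past 1.5 with an interval excluding 1 in at least 1 of 4 comparisons and for Srebf1, Srebf2, Scap and Insig1, and other members are given by ratio, range or count. Of each other lipid list up to 3 genes per direction past the fold were named, except that the values of some single genes are not reported here. The members, the lists and the rule were chosen with earlier results of these data known. Others were named after their values had been seen. Positions and 3′ UTRs are from GENCODE vM21 (GRCm38), and promoters and miRNAs from RefSeq (GRCm38.p6). The alternatives were CPM, TMM and DESeq2 scaling, other read minimums, folds, intervals and added TPM. The steps were tested on simulated data. The work used R 4.3.3 with DESeq2 1.42.0 and edgeR 4.0.16, and Python 3.11.15 with scipy 1.17.1, pandas 2.3.3, numpy 2.4.6 and matplotlib 3.10.9.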

Additional observations from a re-analysis of the deposited data

How the results depend on the processing

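No paired analysis was possible because there is 1 library per condition. The 6 members lower in Cart-miR-23clus KO against WT were also 6 when the reads were scaled to CPM, by TMM or by DESeq2 size factors, with 20 reads in each library, with no filter, and with the interval excluding 1. At a fold of 2 there was 1, Fads2. Among 260 values of named members under other scalings, intervals and added TPM, 13 intervals that had excluded 1 came to include it and 2 came to exclude it, and no ratio whose interval excluded 1 changed direction.

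With no filter on low reads, 2 members were higher in Cart-miR-23clus KO against WT, 2 were lower with the mimic against miR-26a KO, and 2 were higher in Cart-miR-23clus KO against miR-26a KO, since genes with few reads enter. With TMM scaling, 4 members were lower in miR-26a KO against WT. With 20 reads in each library, 1 was higher and 1 lower in miR-26a KO against WT, 0 were higher and 0 lower with the mimic, and 0 were higher in Cart-miR-23clus KO against miR-26a KO. At a fold of 2, 0 were higher and 1 lower in miR-26a KO against WT, 0 were higher with the mimic, and 0 were higher and 0 lower in Cart-miR-23clus KO against miR-26a KO. With the interval excluding 1, 1 was lower in miR-26a KO against WT, and 0 were higher with the mimic and in Cart-miR-23clus KO against miR-26a KO. All other counts of members under these settings differed from those reported by at most 1.

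Other comparison libraries were chosen after seeing the data. With the mimic library in place of WT, 2 members were higher and 3 lower in Cart-miR-23clus KO, beside 10.0% and 11.9% of all genes, with a median log2 ratio of -0.35 beside -0.03. With the mimic library in place of miR-26a KO against WT, 1 was higher and 1 lower, beside 10.7% and 9.16% of all genes, and the median turned to 0.13 beside 0.03. The cause of these shifts was not tested. Depth limits members with few reads: that of Pmvk in Cart-miR-23clus KO against WT, on 17 and 20 reads, ran from 0.460 to 1.88.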

Other observations

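Genes that move cholesterol out of the cell or answer to the oxysterol receptor LXR, and genes of fatty acid oxidation, had medians above 0 in Cart-miR-23clus KO against WT. Of 12 efflux and LXR genes with at least 20 reads, 3 were higher past the fold (25.0%, beside 12.5% of all genes) and 0 lower, with a median log2 ratio of 0.33 beside -0.02 for all genes. Npc2, a lysosomal protein that hands over cholesterol, had 884 reads in WT, 1554 in the Cart-miR-23clus KO library, 1020 in miR-26a KO and 1340 with the mimic, and its Cart-miR-23clus KO level was 1.94 times that of WT (95% interval 1.78 to 2.10). Nr1h3, which encodes LXRα, had 8, 20, 18 and 18 reads in that order of libraries, a ratio of 2.75 (1.16 to 7.23). Abca1, the pump that exports cholesterol to apolipoproteins, had 14, 21, 14 and 11 reads, a ratio of 1.65 with an interval from 0.801 to 3.51. Of 17 fatty acid oxidation genes 2 were higher past the fold (11.8%, near the share of all genes) and 0 lower, with a median of 0.29. Of the 17 ratios 15 were above 1, beside 4645 of 9573 genes. Acads, an acyl-CoA dehydrogenase, was among those higher, at 1.81 (1.22 to 2.72). The lists were chosen with earlier results of these data known, and the difference between them and the synthesis genes was not tested. All 7 adipocyte markers that met the read minimum were higher past the fold in the same comparison, and of 13 macrophage markers 10 were above 1, 3 of them past the fold, with a median of 0.32. Their part in these lists was not tested.

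In miR-26a KO against WT the efflux and LXR list had a median of 0.10, with Nr1h3 higher at 2.47 (1.02 to 6.57) and Apoe, the lipid carrier that macrophages also make in large amounts, lower at 0.306 (0.252 to 0.371). Apoe had 495 reads in WT, 541 in the Cart-miR-23clus KO library, 138 in miR-26a KO and 256 with the mimic, and the macrophage markers summed to 892, 1031, 307 and 571 CPM in the same order. Their part in Apoe was not tested.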
